A study of Homo sapiens with 4 samples.

Results

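The genes described here are 10 imprinted genes, chosen by name: SNRPN, SNURF, NDN, MAGEL2, UBE3A, H19, PEG10, PEG3, MEST and PHLDA2. They are 10 of the 60487 genes listed for each library, and each name matched 1 row. SNRPN and SNURF were chosen because they were listed at 0 in the vector line, so their difference between the lines is a description of that choice and was not tested, and no test is given between the lines for any of the 10 genes. RNA came from the established human line HCC1937, grown from a breast tumour and without working BRCA1 of its own, carrying restored wild-type BRCA1 (labelled wtBRCA1, genotype wild type) or an empty vector (labelled vector, genotype BRCA1 -/-). Each line received OTX-015, an inhibitor of the BET bromodomain proteins that read acetylated histones, or the solvent DMSO, and dose and duration are not given in the sources used here. The 4 groups, wtBRCA1 with OTX-015, wtBRCA1 with DMSO, vector with OTX-015 and vector with DMSO, are each a single library, and nothing was replicated (1 library per group). The labels do not say whether either line is a single clone, and a difference between the lines cannot be told apart from other differences between these cultures.

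An imprinted gene is expressed mainly from the allele of a single parent, and the choice is carried by DNA methylation set in the germ line at control regions. At 15q11-q13 the paternal allele makes a long transcript that begins at SNURF and SNRPN and runs on through the SNHG14 host RNA toward UBE3A, whose own transcript lies on the opposite strand. Loss of the paternal genes of this domain underlies Prader-Willi syndrome and loss of maternal UBE3A in neurons underlies Angelman syndrome. The values used here are sums over alleles, so they say nothing of which allele was transcribed.

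Promoter windows show where these genes start and how dense their CG pairs, the sites of DNA methylation, are. RefSeq (GRCh38.p14) held windows for 7 of the 10 genes, and PEG10, PEG3 and PHLDA2 had none. The 250 bases before the start are given 5′ to 3′ on the gene's strand, with CG pairs in capitals. The first is the start that SNURF and SNRPN share, the second a further upstream start of SNRPN, and the others are a start of MEST, which had its higher levels in the same line, of NDN, listed at 0 in every library, and of UBE3A, listed above 8 FPKM in every library.
SNURF and SNRPN, chr15:24954737-24954986, plus strand: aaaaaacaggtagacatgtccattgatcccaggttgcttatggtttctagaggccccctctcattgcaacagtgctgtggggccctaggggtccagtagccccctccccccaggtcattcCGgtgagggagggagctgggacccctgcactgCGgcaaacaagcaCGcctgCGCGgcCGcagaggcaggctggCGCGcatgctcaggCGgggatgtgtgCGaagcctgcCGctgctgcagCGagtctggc
SNRPN upstream start, chr15:24856321-24856570, plus strand: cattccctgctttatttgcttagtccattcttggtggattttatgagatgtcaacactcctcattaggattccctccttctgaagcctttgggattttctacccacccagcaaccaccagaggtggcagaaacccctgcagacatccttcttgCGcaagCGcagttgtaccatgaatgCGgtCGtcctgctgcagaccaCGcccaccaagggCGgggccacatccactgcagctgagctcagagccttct
MEST, chr7:130491808-130492057, plus strand: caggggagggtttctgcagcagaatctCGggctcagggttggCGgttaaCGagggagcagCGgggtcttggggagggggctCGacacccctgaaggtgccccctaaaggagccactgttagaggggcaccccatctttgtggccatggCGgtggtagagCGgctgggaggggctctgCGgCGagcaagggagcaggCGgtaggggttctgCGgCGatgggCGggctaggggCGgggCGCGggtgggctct
NDN, chr15:23687306-23687555, minus strand: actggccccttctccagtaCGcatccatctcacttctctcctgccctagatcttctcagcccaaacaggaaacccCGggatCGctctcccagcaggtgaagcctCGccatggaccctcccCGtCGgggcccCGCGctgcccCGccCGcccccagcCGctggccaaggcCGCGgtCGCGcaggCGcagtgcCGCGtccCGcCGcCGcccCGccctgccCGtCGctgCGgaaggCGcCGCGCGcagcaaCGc
UBE3A, chr15:25439057-25439306, minus strand: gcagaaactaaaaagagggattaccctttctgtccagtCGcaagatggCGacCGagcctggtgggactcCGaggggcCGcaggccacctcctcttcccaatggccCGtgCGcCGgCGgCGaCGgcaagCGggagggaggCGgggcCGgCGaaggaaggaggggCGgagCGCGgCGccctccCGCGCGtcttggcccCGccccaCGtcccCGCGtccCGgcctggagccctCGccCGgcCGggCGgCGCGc
The shared SNURF and SNRPN window held 12 CG pairs, against a median of 11 over 34943 RefSeq promoter windows of 250 bases. The upstream SNRPN window held 6, the MEST window 16, the NDN window 30 and the UBE3A window 33. The window of NDN, listed at 0 in all libraries, had more CG pairs than 87.6% of all windows. The letters TGCCGC, the hexamer bound by ZFP57, a zinc finger protein that protects methylated imprints, were searched on both strands with overlaps counted. They occurred 2 times in the shared SNURF and SNRPN window, 1 time in the NDN window, and not in the other windows shown, and 12.7% of all windows held them.

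BRCA1 itself was listed at 2712 FPKM under OTX-015 and 171 under DMSO in the wtBRCA1 line, against 40.8 and 37.2 in the vector line. FPKM, fragments per kilobase of transcript scaled to the library's fragments, is a level per length, so it can be compared between genes. The FPKM values summed to 909314 to 1496107 per library, and both OTX-015 libraries held more of the sum in their 10 highest genes (33.8% and 39.2%) than both DMSO libraries (15.3% and 17.4%). Between 39502 and 41799 genes were listed at 0 per library, and 2 to 4 genes per library were listed at 0 while at 10 FPKM or more in the other 3, so a listed 0 is given as listed. All 9 epithelial markers were above 0 in every library, EPCAM at 377 to 443 FPKM. The 9 summed to 7756 and 6931 FPKM in the wtBRCA1 line and 26915 and 11382 in the vector line. KRT8 was the largest part in every library. Single keratins differed between the lines in both directions, with KRT5 at 573 and 980.3 FPKM in wtBRCA1 cells and 23.2 and 29.4 in vector cells, and KRT19 at 1.39 and 3.97 against 234 and 124. KRT14 was low, at 0.438 to 8.53 FPKM. In the limma fit for OTX-015, CDH1 and KRT8 rose and KRT7 fell among these 9 markers, and they kept those calls in 4, 0 and 2 of 8 alternatives. Of the 18296 genes in the fit, 3.66% rose and 2.67% fell. Summed levels of 8 stromal markers were 10.1 and 13.4 FPKM in the wtBRCA1 line and 4.65 and 5.02 in the vector line, with COL1A2, COL3A1, DCN and PDGFRB at 0 in all 4. Among the immune markers, CD3E was at 0 in all 4 libraries, and the sums were 50.2 and 31.7 FPKM in the wtBRCA1 line and 24.8 and 15.7 in the vector line, nearly all from CD68 and CD14. Of 5 neuronal markers, SNAP25 and NEFL were at 0 in all 4 libraries, and the sums, nearly all from the tubulin TUBB3, were 284 and 27.1 FPKM in wtBRCA1 cells and 45.4 and 6.59 in vector cells under OTX-015 and DMSO. TUBB3 rose under OTX-015 by 2.96 ± 0.34 log2 (SE, limma adjusted p = 0.00227) and kept its call in 6 of 8 alternatives. The part of these markers in the results was not tested.

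SNRPN encodes SmN, a tissue-restricted relative of the Sm proteins SmB and SmB′ of the spliceosome. It was listed at 150.35 FPKM under OTX-015 and 51.6 under DMSO in wtBRCA1 cells, and at 0 under both treatments in vector cells. SNURF, which encodes a small protein from the upstream reading frame of the same transcript, was listed at 46.3 and 32.2 FPKM in wtBRCA1 cells and at 0 in both vector libraries. The libraries of the lines did not overlap for either gene, which is what they were chosen for, and no fold is given against a listed 0. In bulk RNA, fewer cells that express a gene and less RNA per cell cannot be told apart. SNRPN (ENSG00000128739, chromosome 15, 24823637 to 24978723, plus strand, hg38 with GENCODE 29) and SNURF (ENSG00000273173, 24954986 to 24977850) share 814 exonic bases, which are 69.3% of SNURF's and 23.8% of SNRPN's. The division of reads between the pair is therefore uncertain, and the ratio of SNRPN to SNURF is not interpreted.

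**Figure D1:**
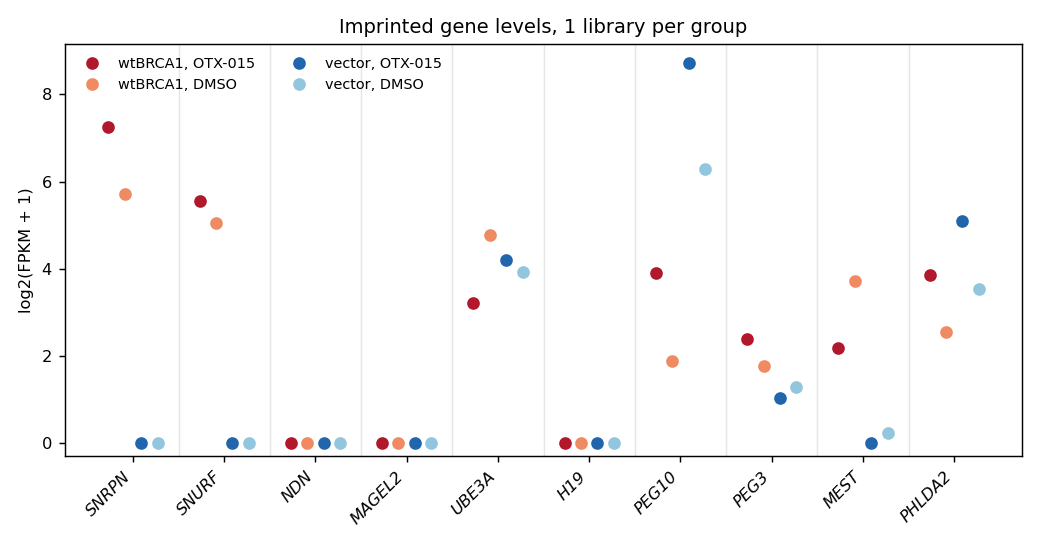
Level of each of the 10 genes as log2(FPKM + 1), with 1 point per library and wtBRCA1 libraries left of vector libraries. SNRPN and SNURF have points above 5 in the wtBRCA1 line and at 0 in the vector line, PEG10 is highest in vector cells under OTX-015 (421 FPKM), and NDN, MAGEL2 and H19 lie at 0 in all 4 libraries.

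Of the 18296 genes kept, those reaching 1 FPKM somewhere, 15 (0.082%) were listed at 0 in both vector libraries and at 10 FPKM or more in both wtBRCA1 libraries. The opposite pattern, 0 in both wtBRCA1 libraries and 10 FPKM or more in both vector libraries, held for 4 genes (0.0219%). MEST was outside the silent pattern, with 3.54 FPKM in wtBRCA1 cells given OTX-015 and 0 and 0.178 FPKM in the vector line. By distance over the 4 log2(FPKM + 1) values, the gene nearest to SNURF was NPNT, which encodes the matrix protein nephronectin, at 0.0266 log2 units. Next were MME, the peptidase neprilysin, at 0.202, TF, the iron carrier transferrin, at 0.457, GPNMB at 0.651 and EPB41L2 at 0.672. Nearest to SNRPN were TPM2, a tropomyosin, at 0.983, TF at 1.62, EPB41L2 at 1.71, C1orf21 at 1.78 and SNURF itself at 1.81. These distances rest on 4 libraries and describe likeness of level only.

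The rest of the 15q11-q13 domain did not share a single pattern. NDN and MAGEL2, paternally expressed genes of the MAGE family, were listed at 0 in all 4 libraries, as was NPAP1. MKRN3, a ring finger gene upstream of them, was listed at 0 and 0.118 FPKM in wtBRCA1 cells and 0 and 0.644 in vector cells. SNHG14, the host RNA downstream of SNRPN, was listed at 24.1 FPKM under OTX-015 and 22.1 under DMSO in wtBRCA1 cells, against 5.89 and 5.11 in vector cells, and so was above 0 in the line where SNRPN was not. Its wtBRCA1 to vector ratios were 4.09 and 4.32, the same direction as SNRPN. SNHG14 shares 198 exonic bases with UBE3A on the opposite strand. Strand use in the authors' counting is not known here, so UBE3A reads within the SNHG14 values cannot be told apart. Downstream noncoding RNAs were low, with PWAR5 at 1.28 and 0.486 FPKM and PWAR6 at 0.322 and 0.262 in wtBRCA1 cells and both at 0 in vector cells. All 30 SNORD116 and 49 SNORD115 snoRNA rows were listed at 0 in every library, and the libraries were made from poly(A) RNA, which such snoRNAs are not. ATP10A, a lipid flippase gene beyond UBE3A, was listed at 3.82 and 6.99 FPKM in wtBRCA1 cells and at 0 and 0.971 in vector cells.

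Several genes at the flanks that are not usually imprinted were expressed in both lines. CYFIP1, an actin regulator, was listed at 77.0 and 76.9 FPKM in wtBRCA1 cells and 68.6 and 43.6 in vector cells under OTX-015 and DMSO. NIPA2, a magnesium transporter, was at 33.2 and 26.3 FPKM against 19.7 and 17.2, and the centrosomal TUBGCP5 at 10.6 and 9.70 against 7.49 and 7.65. On the distal side, the ubiquitin ligase HERC2 was at 13.9 and 31.4 FPKM in wtBRCA1 cells and 6.55 and 5.08 in vector cells. Of the flanking genes, GABRA5, GABRG3 and OCA2 were at 0 in all libraries. NIPA1 and the 4 named before passed the FPKM minimum, and none of these 5 was past 2-fold between the lines under both treatments, where 2-fold means a difference of at least 1 on the log2(FPKM + 1) scale here and throughout. HERC2 came nearest, with differences of 0.98 and 2.41 on that scale, while its plain FPKM ratios were 2.11 and 6.18. Over all genes kept, 6.11% were 2-fold higher and 4.43% lower under both treatments, so nothing is read from the count of these 5.

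**Figure D2:**
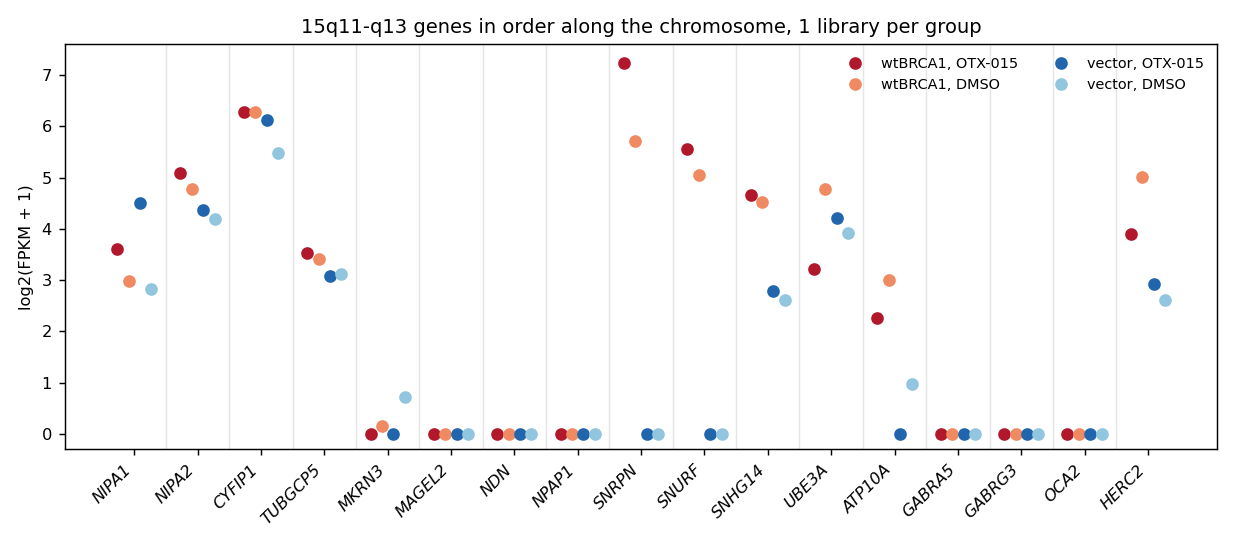
Levels of genes of 15q11-q13 as log2(FPKM + 1), in order along the chromosome at even spacing, with 1 point per library and wtBRCA1 libraries on the left. SNRPN and SNURF lie at 0 in the vector line, where SNHG14 and UBE3A are above 5 FPKM, and NDN, MAGEL2 and NPAP1 lie at 0 in all 4 libraries.

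UBE3A (ENSG00000114062, chromosome 15, 25333728 to 25439056, minus strand) encodes the ubiquitin ligase E6AP and is imprinted in neurons and expressed from both alleles in most other cells. It was listed at 8.35 FPKM under OTX-015 and 26.4 under DMSO in wtBRCA1 cells, and at 17.5 and 14.2 in vector cells. The lowest and the highest value both came from the wtBRCA1 line, so the lines overlapped. The difference between the lines was -0.98 on the log2(FPKM + 1) scale under OTX-015 and 0.85 under DMSO. Opposite signs with at least 1 log2 unit between them occurred in 13.6% of all genes kept. UBE3A shares 198 exonic bases with SNHG14 on the opposite strand, which in wtBRCA1 cells was at 24.1 FPKM under OTX-015 and 22.1 under DMSO.

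PEG10 (ENSG00000242265, chromosome 7, 94656325 to 94669695, plus strand) is a paternally expressed gene derived from a retrotransposon and needed for placental development in mice. It was listed at 14.1 FPKM under OTX-015 and 2.71 under DMSO in wtBRCA1 cells, and at 421 and 77.1 in vector cells. Within each treatment it was lower in the wtBRCA1 line, the reverse of SNRPN and SNURF. The wtBRCA1 to vector ratio was 0.0334 under OTX-015 and 0.0351 under DMSO, and 4.43% of all genes kept were at least 2-fold lower under both. Its neighbour SGCE, which is transcribed from the other strand of the same control region, was at 0.578 and 5.50 FPKM in wtBRCA1 cells and at 6.56 and 6.26 in vector cells. PEG10 and SGCE share 219 exonic bases on opposite strands.

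MEST (ENSG00000106484, chromosome 7, 130486171 to 130506465, plus strand), also called PEG1, encodes a hydrolase-like protein and is paternally expressed. It was listed at 3.54 FPKM under OTX-015 and 12.2 under DMSO in wtBRCA1 cells, and at 0 and 0.178 in vector cells. Within each treatment its level was higher in the wtBRCA1 line, by 2.18 and 3.48 on the log2(FPKM + 1) scale. Of all genes kept, 6.11% were at least 2-fold higher under both treatments. An antisense entry that shares 602 of its exonic bases, AC007938.2, singled out for that overlap, was also higher in the wtBRCA1 line, with 3.03 and 7.99 FPKM against 0 and 0.382. Other genes overlapping its exons on the opposite strand were higher in that line under DMSO only. MESTIT1 was at 0.0754 and 0.762 FPKM against 0.115 and 0, and COPG2 at 8.94 and 17.6 against 9.39 and 12.4. Strand use in the authors' counting is not known here, so reads of MEST and of these genes cannot be told apart.

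PEG3 (ENSG00000198300, chromosome 19, 56810077 to 56840728, minus strand), a paternally expressed zinc finger gene, was low throughout. It was listed at 4.25 and 2.41 FPKM in wtBRCA1 cells and 1.07 and 1.45 in vector cells under OTX-015 and DMSO. Both wtBRCA1 libraries lay above both vector libraries, with differences of 1.35 and 0.47 log2. It shares 1264 exonic bases with ZIM2 on the same strand, listed at 1.06 and 0.521 FPKM in wtBRCA1 cells and 0.687 and 0.113 in vector cells. PHLDA2 (ENSG00000181649, chromosome 11, 2928273 to 2929455, minus strand), a maternally expressed gene that restrains placental growth, was listed at 13.5 and 4.86 FPKM in wtBRCA1 cells and 33.2 and 10.6 in vector cells. Within each treatment it was lower in the wtBRCA1 line, by -1.24 and -0.98 log2, while the ranges of the lines overlapped. H19, the maternally expressed noncoding RNA of the same chromosome arm, was at 0 in all 4 libraries.

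Of the 10 genes, 7 passed the minimum of 1 FPKM in a library, some of them only through the line in which they were high. Under OTX-015, 4 were at least 2-fold higher and 2 lower in the wtBRCA1 line, where 27.7% of all genes kept were past 2-fold either way. Under DMSO, 3 were higher and 1 lower, where 26.5% were. SNRPN, SNURF and MEST were higher and PEG10 lower under both treatments, and 6.11% and 4.43% of all genes were. The rule used this contrast, and nothing is read from these counts.

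The second comparison asks what OTX-015 did to these genes in both lines. PEG10 rose about 5-fold in each line, by ratios of 5.19 in wtBRCA1 cells and 5.45 in vector cells, on the levels given above. Its effect over both lines was 2.23 ± 0.32 on the log2(FPKM + 1) scale (SE, limma adjusted p = 0.00692). PHLDA2 rose by ratios of 2.77 and 3.15, or 1.44 ± 0.35 log2 over both lines (SE, adjusted p = 0.0408 by limma). Every OTX-015 value of both genes was above the DMSO value of the same line. The fit had line and treatment as terms, which leaves 1 residual degree of freedom. That degree is taken up by how far the responses of the lines differ. The fit weighs a gene's own spread together with that of genes of similar level. A gene's p therefore reflects only in part how well the lines agree for that gene. It does not measure the spread of repeated cultures. The 2 calls among 7 genes stand beside 6.32% of all genes called, 3.66% higher and 2.67% lower. PEG10 kept its call in 6 of the 8 alternatives that bear on it, with limma adjusted p from 0.013 to 0.763, and lost it without the mean-variance trend and without the line term. PHLDA2 lost its call in all 8, with limma adjusted p from 0.0561 to 0.552.

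The other 5 genes did not pass. For SNRPN and SNURF the choice of genes at 0 in the vector line fixed a difference of 0 there, so nothing is read from the joint fit. In wtBRCA1 cells under OTX-015, SNRPN had 2.91 times its DMSO level and SNURF 1.44 times, each from 1 library per treatment. The division of reads between the pair is uncertain, so the gap between these ratios is not interpreted. With SNRPN and SNURF summed, the difference in wtBRCA1 cells was 1.22 log2(FPKM + 1). MEST had 0.291 times its DMSO level in wtBRCA1 cells and was near 0 in vector cells, together -0.89 ± 0.50 log2 (SE, limma adjusted p = 0.34). It passed the FPKM minimum only through wtBRCA1 cells and had little room to fall in vector cells. Nothing is therefore read from its joint fit either. UBE3A had 0.316 times its DMSO level in wtBRCA1 cells and 1.23 times in vector cells, and its joint difference of -0.64 ± 0.45 log2 was not past the test (limma adjusted p = 0.453). PEG3 had ratios of 1.77 and 0.734, with a joint difference of 0.19 ± 0.47 log2 (limma adjusted p = 0.844). Within wtBRCA1 cells, SNRPN, PEG10 and PHLDA2 were past 2-fold higher and UBE3A and MEST past 2-fold lower, 5 genes, where 26.4% of all genes were past 2-fold either way. Within vector cells PEG10 and PHLDA2 were past 2-fold, both higher, where 25.7% of all genes were. The 2 genes higher in both lines stand beside 4.57% of all genes.

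**Figure D3:**
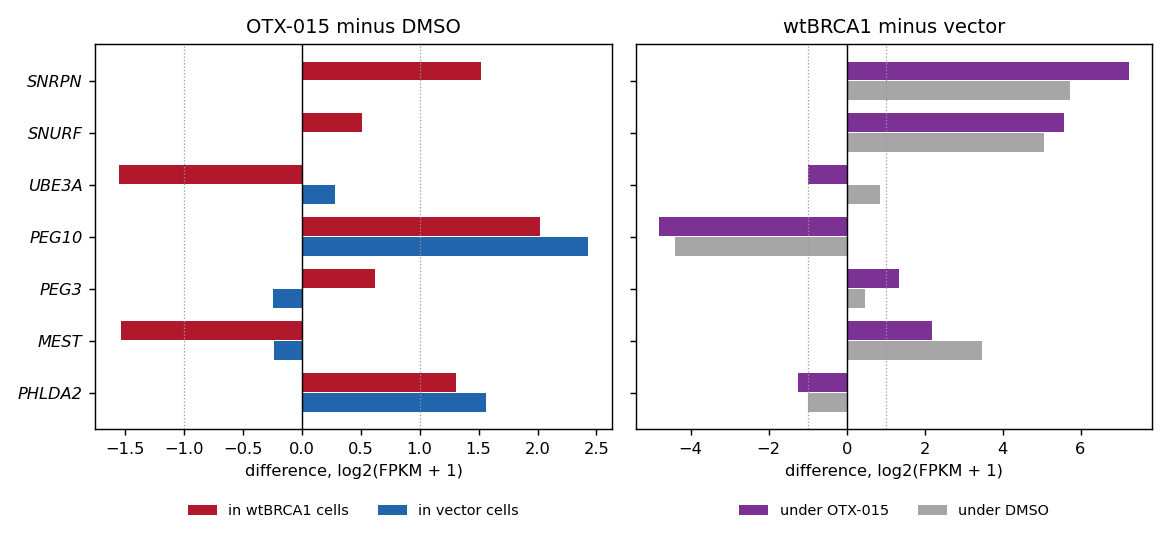
Differences on the log2(FPKM + 1) scale for the 7 genes at 1 FPKM or more in a library, for OTX-015 minus DMSO in each line (left) and wtBRCA1 minus vector under each treatment (right), with 1 library per group, no error bars and dotted lines at a difference of 1. PEG10 and PHLDA2 are above 1 in both lines under OTX-015, and UBE3A and PEG3 point in opposite directions in the 2 lines.

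A wider list of 55 imprinted genes, which includes these 10, sets them among their class. Rows existed for 54 of its genes, 30 of them reached 1 FPKM in a library, and 15 were at 0 in all 4 libraries, among them the paternal and maternal genes DLK1, MEG3, MEG8 and RTL1 of chromosome 14. Between the lines, 6 of the 30 were at least 2-fold higher in wtBRCA1 cells under both treatments, namely SNRPN, SNURF, SNHG14, MEST, ATP10A and PLAGL1. PLAGL1, a paternally expressed zinc finger gene, was listed at 5.19 and 5.77 FPKM in wtBRCA1 cells and at 0 in both vector libraries. Another 7 were lower under both, namely PEG10, IGF2, CDKN1C, KCNQ1, SLC22A18, GRB10 and L3MBTL1. Over all genes kept, 6.11% were higher and 4.43% lower under both. IGF2, the paternally expressed growth factor that shares its control region with H19, was at 0 and 0.0486 FPKM in wtBRCA1 cells and at 5.09 and 3.60 in vector cells. CDKN1C, a maternally expressed CDK inhibitor, was at 0 in both wtBRCA1 libraries and at 3.16 and 1.65 FPKM in vector cells. The medians over the 30 genes were -0.07 log2 under OTX-015 and 0.06 under DMSO, beside 0.00 and 0.04 over all genes kept. The list holds the genes chosen for this contrast, so these counts support nothing.

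**Figure D4:**
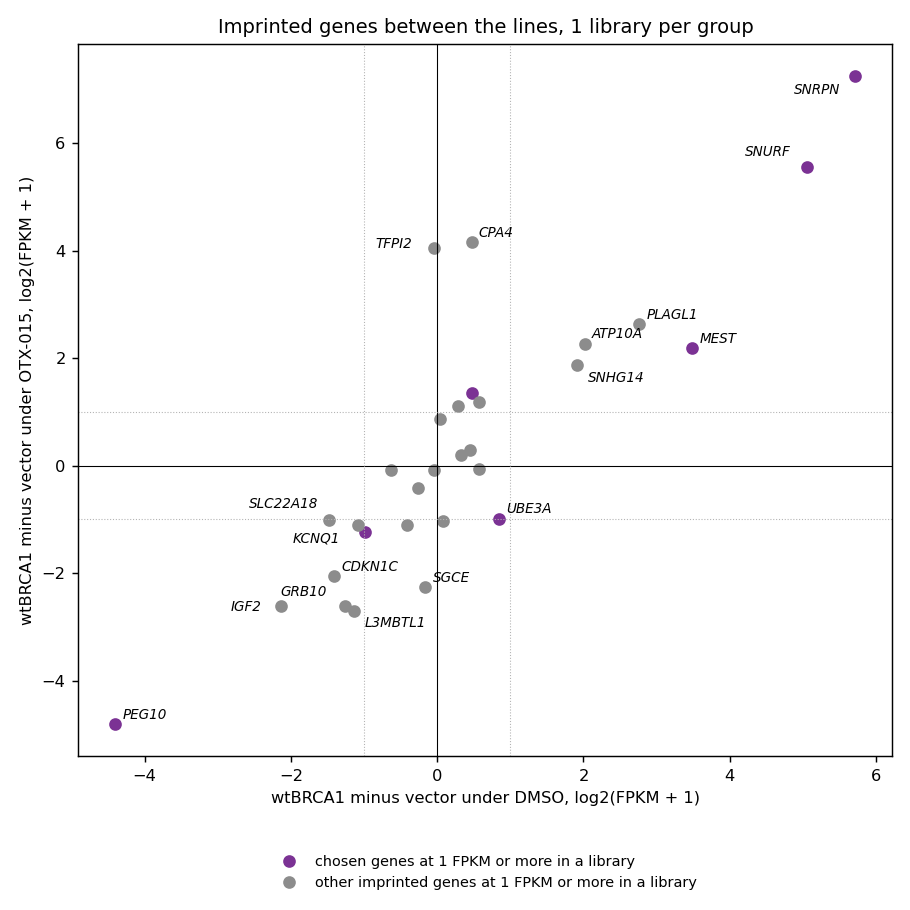
Difference between the wtBRCA1 and vector lines under DMSO (horizontal) and under OTX-015 (vertical), on the log2(FPKM + 1) scale, for 30 imprinted genes at 1 FPKM or more in a library, each from 1 library per group, with dotted lines at a difference of 1. Most points lie near the diagonal, while TFPI2 and CPA4 are about 4 units higher in wtBRCA1 cells under OTX-015 and near 0 under DMSO.

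Under OTX-015, 4 of the 30 imprinted genes rose, 0 fell and 26 did not pass the limma test (7 and 2 at an unadjusted p under 0.05). Over all genes kept, 3.66% rose and 2.67% fell, and 4170 of 18296 had an unadjusted p under 0.05. SNRPN and SNURF are counted in the 26, but their choice fixed a difference of 0 in vector cells, so nothing is read from them. Others of the 26, such as MEST, PLAGL1, PWAR5, CDKN1C and IGF2, were at or near 0 in both libraries of a single line. Their joint effects are not read either. Besides PEG10 and PHLDA2, the carboxypeptidase CPA4, a neighbour of MEST, rose by 3.14 ± 0.67 log2 (SE, limma adjusted p = 0.027). It was at 468 FPKM under OTX-015 and 13.8 under DMSO in wtBRCA1 cells, and at 25.3 and 9.69 in vector cells. Its OTX-015 differences were 4.99 log2(FPKM + 1) in wtBRCA1 cells and 1.30 in vector cells, so the call does not mean like responses. GNAS, which encodes the stimulatory G protein alpha subunit, rose by 0.68 ± 0.15 log2 (SE, limma adjusted p = 0.0282), with 2936 and 1855 FPKM in wtBRCA1 cells and 3114 and 1909 in vector cells. CPA4 lost its call in all 8 alternatives that bear on it and GNAS in 7 of 8. The GNAS effect ran from 0.262 to 0.684 log2 over those alternatives. TFPI2, a protease inhibitor gene near PEG10, was at 79.8 FPKM under OTX-015 and 3.99 under DMSO in wtBRCA1 cells and at 3.86 and 4.16 in vector cells, and it was not past the test. The median effect of the 30 genes was 0.18 log2, beside 0.03 over all genes tested.

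Most genes of a list on imprint maintenance, which also holds TET1, TET2, TET3 and CTCFL, were above 0 in both lines. DNMT3L and CTCFL were at 0 in all 4 libraries, and TET1 reached at most 0.0596 FPKM. Of 16 listed, 13 passed the FPKM minimum, 1 rose under OTX-015, 0 fell and 12 did not pass (1 and 0 at an unadjusted p under 0.05). Over all genes kept, 3.66% rose and 2.67% fell. TRIM28, the corepressor recruited by ZFP57, rose by 1.28 ± 0.18 log2 (SE, limma adjusted p = 0.0062), with 1826 and 853 FPKM in wtBRCA1 cells and 2499 and 907 in vector cells, and kept its call in 4 of 8 alternatives. DNMT1, the maintenance DNA methyltransferase, was at 181 and 259 FPKM in wtBRCA1 cells and 157 and 160.04 in vector cells. ZFP57 itself was low, at 1.37 and 1.80 FPKM against 1.23 and 2.23. HELLS, a chromatin remodeller needed for DNA methylation, was the list's gene at least 2-fold lower in wtBRCA1 cells under both treatments. It was at 13.2 and 6.64 FPKM against 28.5 and 37.3, and 0 of the 13 were higher under both. These stand beside 4.43% lower and 6.11% higher over all genes kept.

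The Sm ring, in which SmN can take the place of SmB, showed no 2-fold difference between the lines. SNRPB, which encodes SmB and SmB′, was at 352 FPKM under OTX-015 and 346 under DMSO in wtBRCA1 cells, against 489.9 and 674 in vector cells, above SNRPN in every library. Under OTX-015, 1 of the 7 ring genes fell and none of the other 6 passed (2 lower and 0 higher at an unadjusted p under 0.05). Of all genes kept, 2.67% fell and 3.66% rose. SNRPF fell by 1.45 ± 0.34 log2 (SE, limma adjusted p = 0.0359), with 23.3 and 49.6 FPKM in wtBRCA1 cells and 23.0 and 84.8 in vector cells, and lost its call in all 8 alternatives that bear on it.

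In the insulin-like growth factor list, the axis that IGF2, H19 and IGF2R act on, 13 of 15 genes passed the FPKM minimum and 0 rose or fell under OTX-015 in the limma fit (1 higher and 3 lower at an unadjusted p under 0.05). Of all genes kept, 3.66% rose and 2.67% fell. Between the lines, 2 were at least 2-fold higher in wtBRCA1 cells under both treatments and 3 lower, where 6.11% and 4.43% of all genes were. The binding protein gene IGFBP5 was at 4.26 and 14.1 FPKM in wtBRCA1 cells and 0.771 and 0.213 in vector cells, and IGFBP4 at 18.2 and 32.0 against 2.43 and 13.6. Lower were IGF2, the messenger-binding IGF2BP2 at 6.36 and 7.68 FPKM against 15.8 and 23.2, and IGFBP2 at 5.99 and 10.6 against 22.5 and 29.4. MAGEL2 was at 0, while most genes listed as its ligase and endosomal partners were present. TRIM27 was at 24.6 and 16.02 FPKM in wtBRCA1 cells and 17.2 and 12.6 in vector cells, while WASH1 was low, at 0.115 to 0.518 FPKM. Of 11 such partners, 10 passed the FPKM minimum, 0 rose or fell under OTX-015 in the limma fit (1 higher and 0 lower at an unadjusted p under 0.05), and 0 were 2-fold apart between the lines under both treatments. Over all genes kept, 6.32% were called for OTX-015, and 6.11% were higher and 4.43% lower between the lines under both treatments. With shares this small, nothing is read from counts of 0 among 10 genes.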

How the data were processed

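Poly(A)-selected RNA of 4 libraries, 1 per group, was made into directional libraries, per the labels' protocols. The authors deposited FPKM per gene; the submitters' processing notes name TopHat2, Cufflinks and hg38, while versions, annotation release, strand use and scaling between libraries are not given in the sources used here. The depth of each library is unknown. Each deposited file held 60487 rows, and 94.2% of identifiers were in GENCODE 29. Short structural RNA rows (7508) were left out of fits, rows sharing a symbol (68 symbols) were summed, and 18296 genes with at least 1 FPKM in a library were kept as log2(FPKM + 1), a scale that understates changes of low genes. limma 3.58.1 (R 4.3.3) was fitted to all genes on line plus treatment, with a mean-variance trend, Benjamini-Hochberg adjustment and a threshold of 0.05. With 1 residual degree of freedom the spread shared over genes is poorly determined. Pairs of libraries had no test and are described by log2 differences of at least 1. The 10 genes, the gene lists and the alternatives were chosen with earlier results of these data known. The text names the 10 genes, genes of those lists with the count over the list, and the 5 genes nearest to SNRPN and to SNURF by Euclidean distance over the 4 libraries. Alternatives were pseudocounts of 0.1 and 5, no FPKM minimum or 5, quantile normalization, median-of-ratios scaling, no trend, no line term, and SNRPN and SNURF summed, which bears on that pair alone. Some genes of the lists are not reported here. Coordinates are from GENCODE 29, promoter windows from RefSeq. Python 3.11.15, pandas 2.3.3, numpy 2.4.6 and matplotlib 3.10.9 were used.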

Additional observations from a re-analysis of the deposited data

Results flagged for a closer look

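UBE3A had opposite OTX-015 differences in the lines, -1.55 log2(FPKM + 1) in wtBRCA1 cells and 0.28 in vector cells, a gap of -1.83. The same gap of -1.83 separated its line difference under OTX-015 from that under DMSO, since both are made from the same 4 values. PEG3 had differences of 0.62 in wtBRCA1 cells and -0.25 in vector cells, a gap of 0.871. Each line has 1 library per treatment, so neither gap was tested, and 14.0% of all genes kept had OTX-015 differences of opposite sign and at least 1 log2 unit apart.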

How the results depend on the processing

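The number of genes called for OTX-015 was 1157 as reported, 756 at pseudocount 0.1, 453 at pseudocount 5, 80 with no filter on low values, 523 at an FPKM minimum of 5, 120 after quantile normalization, 625 with median-of-ratios factors, 4 without the trend and 1 without the line term. Of the 10 genes, 2 were called as reported, 1 (PEG10) with either pseudocount, with no filter, at an FPKM minimum of 5 and after either rescaling, and 0 without the trend or the line term. The cause was not tested. Genes past 2-fold under OTX-015 in both lines numbered 2 as reported, 3 at pseudocount 0.1, where MEST was past 2-fold lower, and 1 at pseudocount 5, and those past 2-fold between the lines under both treatments 4 as reported, 5 at pseudocount 0.1 and after either rescaling, 3 at pseudocount 5 and with SNRPN and SNURF summed, and 4 with no filter or an FPKM minimum of 5. Among single-gene values recomputed, 231 kept direction and side of the threshold, 13 were no longer past it, 5 were newly past it and 0 were reversed. Many of the 231 could not change. The FPKM minimum does not alter a log2 difference, and summing SNRPN and SNURF does not alter differences of other genes. The 231 are therefore no measure of stability. Of the 13, 10 were joint OTX-015 effects, all of PEG10 or PHLDA2. The line term sets OTX-015 against DMSO within each line, and the fit without it is the one that leaves 1 call. Beyond that, no paired analysis was possible because each group has 1 library and the labels give no replicate numbers. Depth is unknown, so no limit can be set on a listed 0.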
